A study of Mus musculus with 24 samples.

Results

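The nuclear genes for subunits of the mitochondrial respiratory chain were followed across the liver transcriptomes of 2 mouse genotypes. Members were the protein-coding genes whose symbols begin with Nduf followed by a, b, c, s or v (complex I, assembly factors left out), Sdha to Sdhd (complex II), Uqcr (complex III), Cox4 to Cox8 (complex IV) or Atp5 (complex V). The annotation held 85 such symbols, of which 38 belonged to complex I, 4 to complex II, 8 to complex III, 18 to complex IV and 17 to complex V. The p16-3MR table contained 82 of them among 21755 genes; Cox7b2, Cox8b and Cox8c were the 3 that it did not list. In the wild-type table the gene labels had lost 9 lower-case letters, so only labels that fit a single symbol were used, which left 53 members (20, 4, 8, 11 and 10 for complexes I to V) among 12643 labels. The rule for members uses symbols and no measured value.

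The study asked how removal of p16-expressing cells acts on the ageing liver of each sex. p16-3MR mice carry a transgene with a viral thymidine kinase under the p16Ink4a promoter, so that ganciclovir (GCV) kills cells in which this promoter is active. These mice received GCV or vehicle (VEH, pH11 water) on 5 consecutive days of each month from 16 to 18 months of age, and their livers were taken at about 28 months. Wild-type mice, which lack the transgene, received the same agents monthly from 6 months of age for 3 months. Each genotype gave 3 GCV and 3 VEH livers per sex, 24 livers in all. The labels give the GCV dose as 150 mg/kg and the published methods as 25 mg/kg. Genotype, age, treatment length and labelled batch (1 for p16-3MR, 2 for wild-type, of what is not stated) changed together and cannot be told apart, so each genotype was analysed on its own. The labels do not link each library to an animal by name, so the p-values measure the spread between these livers.

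The respiratory chain passes electrons from NADH (at complex I, NADH dehydrogenase) or succinate (at complex II, succinate dehydrogenase, also an enzyme of the citric acid cycle) through complex III to complex IV, cytochrome c oxidase, which reduces oxygen. Complexes I, III and IV pump protons, and complex V, the ATP synthase, uses the resulting gradient to make ATP. Complex II is built from nuclear genes alone, whereas the other complexes also hold subunits encoded in mitochondrial DNA. Hepatocytes are rich in mitochondria and depend on this pathway for gluconeogenesis, urea synthesis and fatty acid oxidation. Transcription of the nuclear subunits is known to involve NRF1, GABP (an ETS factor), the oestrogen-related receptors, YY1 and SP1, with the coactivator PGC-1alpha (Ppargc1a).

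Start-site sequences are shown for 4 members to which the sex comparison of the wild-type livers returns. Uqcr10 and Uqcr11 are small subunits of complex III, Ndufv3 is an accessory subunit of complex I, and Cox7a1 is the heart and muscle isoform of a complex IV subunit. Each window runs from 250 bases before to 50 bases after the RefSeq start (GRCm38.p6, 300 bases, transcript strand, 5′ to 3′). Capitals mark matches on either strand to CGCANGCGC (NRF1), CCGGAAG (ETS), TCAAGGTCA (oestrogen-related receptor), AAGATGGC (YY1) or GGGCGG (SP1). The windows are chr11:4704295-4704594 on the minus strand for Uqcr10, chr10:80406772-80407071 on the minus strand for Uqcr11, chr17:31519865-31520164 on the plus strand for Ndufv3 and chr7:30183921-30184220 on the plus strand for Cox7a1.
Uqcr10: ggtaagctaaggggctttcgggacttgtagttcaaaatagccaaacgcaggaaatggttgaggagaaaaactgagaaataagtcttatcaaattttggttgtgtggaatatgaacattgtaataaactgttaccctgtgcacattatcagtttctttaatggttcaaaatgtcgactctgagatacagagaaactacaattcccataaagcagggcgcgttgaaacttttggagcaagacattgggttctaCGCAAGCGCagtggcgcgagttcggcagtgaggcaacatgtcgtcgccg
Uqcr11: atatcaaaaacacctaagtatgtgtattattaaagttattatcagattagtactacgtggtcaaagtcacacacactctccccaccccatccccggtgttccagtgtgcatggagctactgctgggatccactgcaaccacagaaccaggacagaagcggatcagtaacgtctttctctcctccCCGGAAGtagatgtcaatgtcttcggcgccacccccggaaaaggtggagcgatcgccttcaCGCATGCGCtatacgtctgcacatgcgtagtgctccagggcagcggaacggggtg
Ndufv3: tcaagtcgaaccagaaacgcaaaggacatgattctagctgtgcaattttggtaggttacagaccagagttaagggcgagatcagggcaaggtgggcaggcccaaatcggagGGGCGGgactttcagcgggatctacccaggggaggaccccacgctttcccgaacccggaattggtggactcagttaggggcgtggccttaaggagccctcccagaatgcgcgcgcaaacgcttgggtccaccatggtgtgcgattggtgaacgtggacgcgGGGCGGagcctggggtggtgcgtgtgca
Cox7a1: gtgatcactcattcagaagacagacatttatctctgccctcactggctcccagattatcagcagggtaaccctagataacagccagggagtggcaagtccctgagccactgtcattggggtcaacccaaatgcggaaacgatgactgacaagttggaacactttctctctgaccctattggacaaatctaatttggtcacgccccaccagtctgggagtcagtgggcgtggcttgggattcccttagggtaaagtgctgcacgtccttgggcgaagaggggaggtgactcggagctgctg
Both complex III windows held an NRF1 match within 5 bases of the start, and that of Uqcr11 held an ETS match 66 bases from it. Ndufv3 held 2 SP1 matches, and Cox7a1 none of the 5 motifs. No matches overlapped each other in these windows.

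RefSeq windows existed for 67 of the 85 members (72 windows). CGCANGCGC was found in 33.3% of the member windows and in 8.61% of 21262 windows of protein-coding genes. CCGGAAG was found in 22.2% and 11.6%, AAGATGGC in 12.5% and 3.05%, and TCAAGGTCA in 2.78% and 0.334%. GGGCGG was the one motif of the 5 that was less frequent in the member windows, at 38.9% against 46.2%. Among the complexes, CGCANGCGC was in 2 of 3 complex II windows, in 3 of 5 complex III windows and in 8 of 16 complex V windows. It was in 10 of 35 complex I windows and in 1 of 13 complex IV windows. A match describes these letters in this window and is no evidence of binding.

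The p16-3MR libraries held 5005760 to 7160172 counts and the wild-type libraries 3084517 to 5667904. In the p16-3MR table, 3 livers stood apart. In GCV female 33, mitochondrially encoded genes took 64.0% of the counts (12.3 to 22.4% in the other 11 livers), the members took 0.174% of the counts (0.572 to 1.11% in the others) and the TMM scaling factor was 0.259 (0.850 to 1.80). In GCV male 32 and VEH male 24 the summed level of 6 hepatocyte markers was 24380 and 38440 CPM (edgeR counts scaled to library size with TMM factors), against 73590 to 154900 CPM in the other 10 livers. The summed level of 6 Kupffer cell markers was 2828 and 1683 CPM in those males and 107.5 to 932.0 CPM elsewhere. In whole tissue, fewer cells of a type and less RNA per cell cannot be told apart. Values without these libraries are given for several of the p16-3MR results that they move.

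The level of a complex in a liver was taken as the mean TMM-scaled log2 CPM of its members; complexes were not ranked against each other, because counts from 3′-end libraries differ between genes for reasons other than abundance. In p16-3MR livers complex I averaged 5.74 ± 0.294 in GCV females, 5.25 ± 0.227 in VEH females, 5.39 ± 0.806 in GCV males and 5.44 ± 0.511 in VEH males (SD, n = 3). Complex II averaged 5.84 ± 1.44, 6.47 ± 0.356, 6.16 ± 0.843 and 6.56 ± 0.597 in the same order, and was the one complex whose mean was lower with GCV by more than 0.3 in both sexes. Complex III averaged 6.80 ± 0.486, 6.48 ± 0.267, 6.42 ± 0.992 and 6.62 ± 0.629. Complex IV averaged 4.50 ± 0.632, 4.34 ± 0.212, 4.82 ± 0.418 and 4.77 ± 0.199, and complex V 6.55 ± 0.713, 6.35 ± 0.258, 6.36 ± 0.867 and 6.47 ± 0.50. Apart from complex I in females, the GCV and VEH livers overlapped for each complex in each sex. In complex I the lowest GCV female and the highest VEH female both stood at 5.415 as rounded, so these groups touched. No difference between treatments exceeded the SD pooled within groups, which ran from 0.406 for complex IV to 0.902 for complex II. With GCV female 33, GCV male 32 and VEH male 24 left out, a choice made after seeing the data, the remaining GCV females lay above all VEH females in complexes I (5.82 and 5.99 against 4.99 to 5.42), III (7.05 and 7.10 against 6.17 to 6.67), IV (4.74 and 4.98 against 4.10 to 4.51) and V (6.95 and 6.97 against 6.05 to 6.51). Complex II overlapped in females (6.39 and 6.92 against 6.07 to 6.75), but its mean was then higher with GCV (6.66 against 6.47), so its lower mean in GCV females rested on liver 33. The remaining males had higher means with GCV in complexes I (5.77 against 5.72), IV (5.02 against 4.86) and V (6.797 against 6.755). Their means were lower in complexes II (6.59 against 6.91) and III (6.925 against 6.97), and each complex overlapped.

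**Figure D1:**
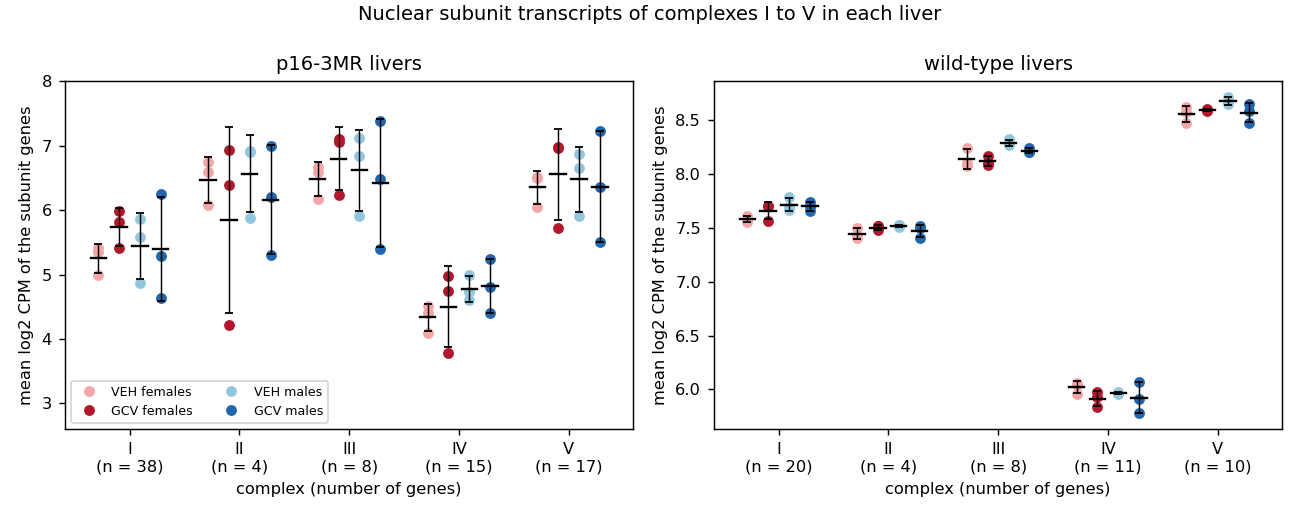
Mean TMM-scaled log2 CPM of the members of complexes I to V (x axis, number of genes in brackets) in each p16-3MR liver (left) and wild-type liver (right). Points are livers, long bars group means and error bars SD (n = 3). The p16-3MR GCV and VEH livers of a sex overlap in every complex, except that in complex I of females they touch. The wild-type livers of a group lie close together.

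After TMM scaling, the spread came mostly from whole livers moving up or down together. Over the 77 members with a mean of at least 10 counts, the median deviation from each gene's median over the 12 livers was 0.76 in GCV male 34 and -0.96 in GCV male 32, both from the same group. It was 0.55 in GCV female 31, 0.39 in GCV female 35, 0.42 in VEH male 25, -0.63 in VEH male 24 and -0.50 in VEH female 28. Within these livers the members stayed close together, with an interquartile range of 0.164 to 0.506 in all livers but GCV female 33. In that liver it was 1.68, with 7 members more than 1 log2 unit above and 24 more than 1 below their own median. Uqcrq, a small complex III subunit, lay highest there (2.00), and among the members with at least 3 counts Sdhd, a membrane subunit of complex II, lay lowest (-3.99, at 3.86 CPM where the median of the 12 livers was 66.1 CPM). Atp5g2, one of 3 genes for the membrane ring subunit c of ATP synthase, was at 0 counts in liver 33, so its deviation there has no measured value. GCV female 33 thus differed in the proportions of the subunits and not only in their sum, while GCV male 32 had 36 members more than 1 log2 unit low and none more than 1 high. The TMM factor was 1.80 in GCV male 32 and 1.64 in VEH male 24, against 0.850 to 1.19 in the other livers apart from GCV female 33. As a share of all counts the members took 0.650% and 0.760% in those 2 males, where the median of the 12 livers was 0.781%. The part of the scaling in these deviations was not tested.

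**Figure D2:**
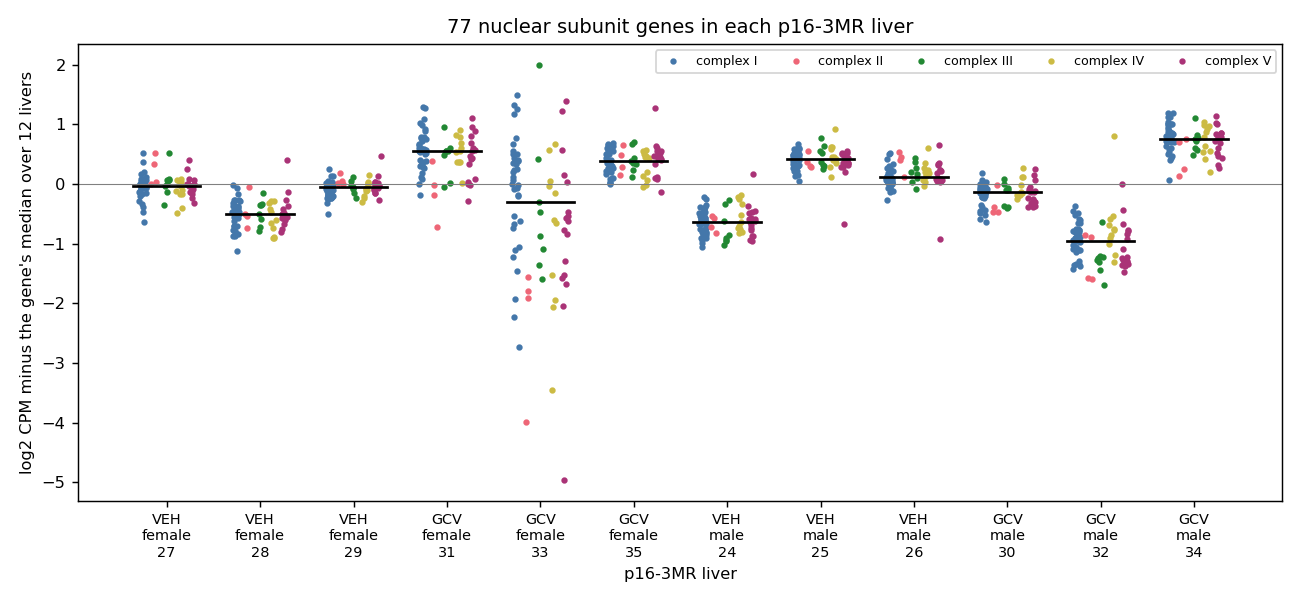
Deviation of each of 77 members (points, coloured by complex) from its median over the 12 p16-3MR livers, in TMM-scaled log2 CPM (y axis), by liver (x axis). Black bars are the median of all points. GCV female 33 spreads from 2.00 to -3.99 around a median of -0.31 (the point below, Atp5g2, is at 0 counts, and its place is set by the prior count), while the other livers move as a body, from -0.96 in GCV male 32 to 0.76 in GCV male 34.

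In p16-3MR females, transcripts of complex I were the most uniformly higher with GCV, but no member passed the test. In the Benjamini-Hochberg adjusted quasi-likelihood test of edgeR over all genes, 0 of 82 members reached an adjusted p under 0.05 (0.0% of all genes). At an unadjusted p under 0.05 there were 7 members, all higher with GCV, that is 8.54% of the members against 5.05% of all genes in that direction and 7.37% in either. DESeq2 gave 14 members (8.44% of all genes) and limma-voom with quality weights 24 (11.8% of all genes) at that unadjusted limit. Neither called a member, where DESeq2 called 0.414% and limma-voom 0.0322% of all genes. The log2 fold change was above 0 in 70 of 82 members (46.1% of all genes), with a median of 0.44 where the median of all genes was 0.00; with total counts and no TMM it was above 0 in 34, with a median of -0.03 where that of all genes was -0.58.

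Of the 38 complex I members 37 had a fold change above 0 (median 0.60). The median was 0.64 for the 7 nuclear core subunits, of which 6 were above 0, and 0.60 for the 31 others, all above 0. Ndufa2, an accessory subunit, had the lowest p of all members. Its level was 72.7, 85.0 and 50.3 CPM in GCV females 31, 33 and 35 and 26.7, 25.9 and 29.7 CPM in VEH females 27, 28 and 29. The groups did not overlap and the log2 fold change was 1.33 (SE 0.447, unadjusted p = 0.0102, adjusted p = 0.646). Ndufb4 was at 125.7, 205.5 and 95.8 CPM with GCV and at 63.4, 42.1 and 68.1 CPM with VEH, a log2 fold change of 1.29. Ndufa12 stood at 34.3, 34.8 and 24.5 CPM against 21.3, 9.12 and 17.0 CPM, and Ndufa8 at 84.6, 61.0 and 44.8 CPM against 31.8, 30.7 and 29.5 CPM. Each of these accessory subunits was separated between the treatments, and so was the core subunit Ndufv2, a carrier of an iron-sulphur cluster, at 92.7, 144.4 and 77.0 CPM against 61.3, 47.2 and 63.1 CPM. In the fitted fold changes the exception within the complex was the largest core subunit of the NADH-oxidising arm, Ndufs1. On the scale of mean log2 CPM, Ndufa4, Ndufa7, Ndufa11, Ndufb2 and Ndufb9 were lower with GCV as well, which left 32 of 38 above 0 (median 0.55). Ndufs1 was at 52.1, 12.4 and 77.7 CPM with GCV and 85.4, 56.6 and 64.9 CPM with VEH, with liver 33 lowest and a log2 fold change of -0.52 (SE 0.540). The core subunit Ndufv1, which binds NADH, had a log2 fold change of 0.01 (SE 0.431).

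Complex II was the exception among the complexes, with 1 of its 4 members above 0 and a median of -0.18. Sdha, the flavoprotein that oxidises succinate, was at 163.7, 71.1 and 375.9 CPM in the GCV females and at 384.7, 259.1 and 279.1 CPM in the VEH females, which overlapped (log2 fold change -0.59, SE 0.608). Sdhb, the iron-sulphur subunit, was at 43.0, 13.9 and 77.7 CPM against 61.7, 34.4 and 55.9 CPM, and the membrane anchor Sdhd at 65.2, 3.86 and 80.8 CPM against 67.8, 39.5 and 67.1 CPM. Liver 33 was the lowest female for each of the 3, and without it the median of complex II was 0.23. The difference between the complex I and complex II levels shows the same liver. It was -1.34, -1.08 and -1.25 in the VEH females and -0.408, 1.20 and -1.10 in the GCV females, where 1.20 belongs to liver 33. In males it ran from -1.32 to -1.0 with VEH and from -0.902 to -0.664 with GCV, without overlap.

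For complexes III, IV and V the median log2 fold changes in females were 0.28, 0.42 and 0.42. Uqcrq, which also had the largest range of group means among members with at least 10 counts (1.45 log2 units), was at 537.5, 1113 and 351.5 CPM with GCV and at 218.8, 196.9 and 237.4 CPM with VEH. That separation corresponded to a log2 fold change of 1.61 (SE 0.633, unadjusted p = 0.0233, adjusted p = 0.667 by the Benjamini-Hochberg adjusted quasi-likelihood test of edgeR). Uqcrfs1, the Rieske iron-sulphur protein, was also separated, at 185.1, 167.6 and 160.8 CPM against 114.1, 72.4 and 112.8 CPM, while the core protein Uqcrc1 was not, at 63.0, 35.5 and 84.9 CPM against 94.0, 58.7 and 67.2 CPM. In complex IV, Cox5b was at 135.7, 136.7 and 124.6 CPM against 90.6, 58.7 and 86.7 CPM, with no overlap. Its partner Cox5a was at 95.2, 4.63 and 75.3 CPM against 48.4, 40.2 and 54.9 CPM, and Cox4i1, the ubiquitous isoform of the largest nuclear subunit, at 239.1, 44.0 and 214.2 CPM against 195.6, 149.3 and 175.8 CPM. For both, livers 31 and 35 lay above all VEH females and liver 33 below them.

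Complex V showed the same division. Atp5e, the epsilon subunit of the ATP synthase stalk, was at 221.7, 279.6 and 186.2 CPM with GCV and at 95.4, 81.2 and 99.7 CPM with VEH (log2 fold change 1.31, SE 0.502, unadjusted p = 0.0205). The catalytic head subunits did not separate, with Atp5b at 548.9, 168.4 and 791.6 CPM against 639.1, 445.2 and 525.9 CPM and Atp5a1 at 294.2, 124.4 and 511.5 CPM against 477.4, 326.7 and 395.8 CPM. The ring subunit genes Atp5g1, Atp5g2 and Atp5g3 had log2 fold changes of 0.35, 0.30 and 0.16, each with an SE above 0.5. Atp5g2 was listed at 0 in liver 33, where 3 counts would correspond to 2.32 CPM, against 6.51 to 22.8 CPM in the other females.

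Counted over all complexes after TMM scaling, 28 of 82 members (34.1%) were higher in all GCV females than in all VEH females, against 5.91% of all genes, and none was lower without overlap (7.35% of all genes). With total counts and no TMM, 1 member was higher without overlap (0.929% of all genes) and 0 were lower (16.8% of all genes). After TMM scaling, the shares higher without overlap among genes with at least 10 counts on average were 36.4% of the members and 8.82% of all genes. Of the 28, 20 belonged to complex I, 2 to complex III, 3 to complex IV and 3 to complex V. Leaving out GCV female 33, a choice made after seeing the data, gave 63 of 82 (76.8%, against 12.9% of all genes), and the median log2 fold changes became 0.60, 0.23, 0.50, 0.65 and 0.65 for complexes I to V. Leaving out VEH female 28, whose members were low, reduced the median to 0.27 and the members at an unadjusted p under 0.05 to 1, while 14 reached that limit without GCV male 34. The shares of all genes at that limit in these 2 fits are not given here, so the counts cannot be set against them. Stellate cell markers summed to 163.0 to 284.1 CPM in GCV females and 308.0 to 352.5 CPM in VEH females, without overlap, Kupffer cell markers to 107.5 to 322.1 CPM against 291.1 to 932.0 CPM, T and B cell markers to 2.31 to 11.6 CPM against 10.5 to 70.5 CPM, sinusoidal endothelial markers to 86.4 to 154.5 CPM against 117.5 to 257.0 CPM, and hepatocyte markers to 95290 to 154900 CPM against 83860 to 108300 CPM. The fold change was below 0 for 6 of 6 T and B cell markers (4 with an unadjusted p under 0.05), 6 of 6 Kupffer cell markers (1), 5 of 6 endothelial markers (2) and 5 of 6 stellate cell markers (0), none of them called. Of the 6 hepatocyte markers 3 were above 0 and 3 below (median 0.06), and their sum was mostly Alb, the gene for albumin, at 146100 CPM in liver 33, where Ttr, Serpina1a and Cps1 were at 634.1, 1094 and 525.2 CPM, lower than in the other 5 females. The part of liver composition and of the mitochondrial share of liver 33 in these values was not tested.

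**Figure D3:**
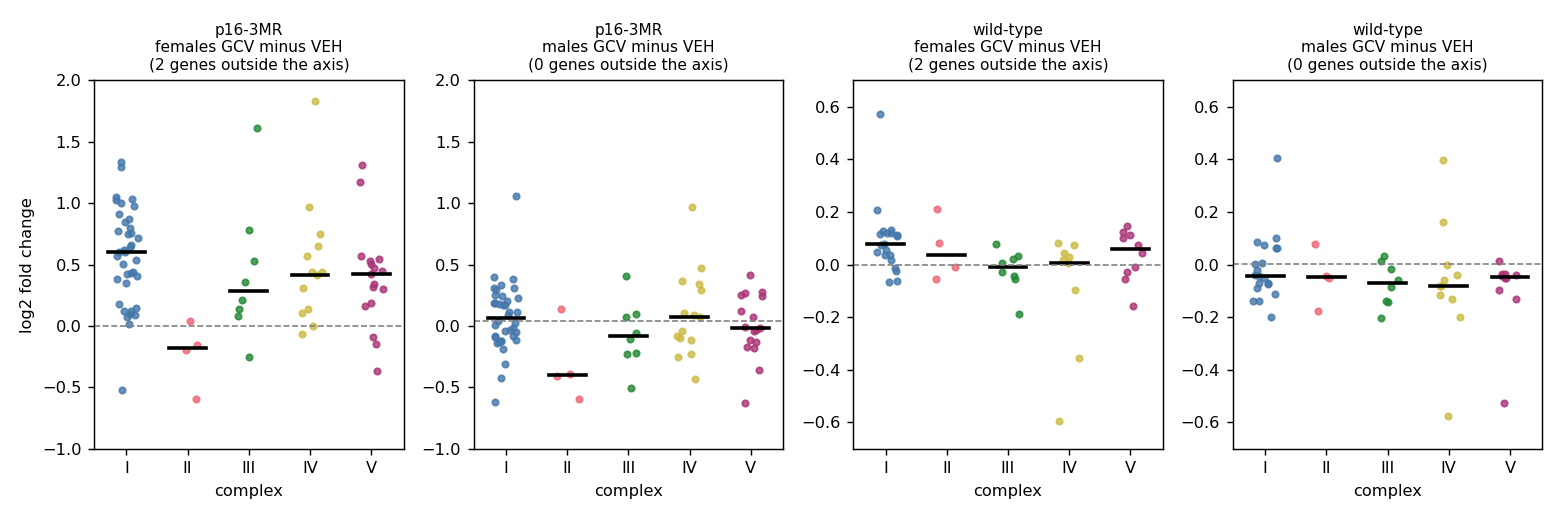
Log2 fold change of each member (points) between GCV and VEH livers, by complex (x axis), in p16-3MR females and males and in wild-type females and males; black bars are medians and the dashed line is the median of all genes. In p16-3MR females 37 of 38 complex I points lie above 0 with the TMM scaling shown (the median of complex I is -0.0020 with total counts), and the wild-type panels have a narrower y axis.

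In p16-3MR males the members fell on both sides of 0. The fold change was above 0 in 41 of 82 (52.8% of all genes), with a median of 0.00, and the medians of complexes I to V were 0.07, -0.40, -0.08, 0.07 and -0.01. No member was called by the edgeR quasi-likelihood test (0.0% of all genes), and 0 of 82 had an unadjusted p under 0.05 (1.91% of all genes). DESeq2 also gave 0 and limma-voom 10, fewer than its share of all genes (23.1%). Neither called a member (0.023% and 0.667% of all genes). The lowest p belonged to Cox7a2l, a homologue of the complex IV subunit Cox7a2 that joins complexes III and IV into supercomplexes. It was at 93.9, 136.7 and 89.9 CPM in GCV males 30, 32 and 34 and at 65.5, 84.5 and 81.4 CPM in VEH males 24, 25 and 26 (log2 fold change 0.47, SE 0.326, unadjusted p = 0.171, adjusted p = 1.0). It was the only member without overlap between the male groups, 1.22% of the members and in the direction that 3.57% of all genes took. Ndufs1, Atp5a1 and Uqcrc1 followed, with log2 fold changes of -0.62 (SE 0.540), -0.63 (SE 0.563) and -0.51 (SE 0.465).

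The male result turned on single livers. Without GCV male 34 the median was -0.52 and 6 members were above 0; without GCV male 32 it was 0.30 and 70 were above 0, and without VEH male 25 it was 0.22, also with 70 above 0. Without VEH male 24 it was -0.22, with 21 above 0. Leaving out GCV male 32 and VEH male 24 together, the livers with low hepatocyte markers, gave a median of 0.08 with 52 above 0. With all livers 52.8% of all genes were above 0, and the shares in the fits without a liver are not given here. Uqcrq shows the spread within 1 group, at 294.5, 102.8 and 600.3 CPM in the GCV males and 144.2, 346.8 and 262.9 CPM in the VEH males. Sdha was at 195.2, 89.4 and 293.7 CPM with GCV and at 153.0, 330.2 and 388.2 CPM with VEH. In both genes the lowest male was 1 of the pair with low hepatocyte markers, liver 32.

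The female response minus the male response was above 0 for 76 of 82 members (48.4% of all genes), with a median of 0.42. No member passed this interaction test (0.0% of all genes), and none had an unadjusted p under 0.05 (3.78% of all genes). DESeq2 likewise gave 0, whereas limma-voom with quality weights gave 29 at the unadjusted limit (15.5% of all genes). Neither called a member (0.0138% and 0.0046% of all genes). The lowest p values belonged to Cox4i2 (-4.86, SE 2.70, unadjusted p = 0.0982), Ndufa12 (1.01, SE 0.569), Ndufa8 (1.07, SE 0.641) and Ndufa2 (1.00, SE 0.623), all with an adjusted p of 0.976 by the Benjamini-Hochberg adjusted quasi-likelihood test of edgeR. The Cox4i2 value depends on the prior count, because all GCV females were at 0. No difference between the female and male responses of a member was thus detected beyond the spread between livers. With total counts and no TMM 33 of 82 were above 0 (24.1% of all genes). The median of the difference was 0.58 without GCV female 33, 0.57 without VEH male 24, 0.06 without GCV male 32 and 0.97 without GCV male 34, with 13 members then at an unadjusted p under 0.05. The share of all genes at that limit in that fit is not given here. In this contrast 6 of 6 T and B cell markers (median -3.46) and 5 of 6 Kupffer cell markers (-2.63) were below 0. So were 6 of 6 stellate cell markers (-0.75), while 3 of 6 hepatocyte markers were above 0. With GCV in males, 6 of 6 T and B cell and 5 of 6 Kupffer cell markers were above 0. None of these markers was called, and their part in the member differences was not tested.

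Averaged over the treatments, the differences between p16-3MR females and males lay on both sides of 0 (median 0.01, with 42 of 82 above 0 against 44.2% of all genes). That count was 8 without GCV male 32, 71 without GCV male 34, 67 without GCV female 33 and 15 without VEH male 24. It was 4 without males 24 and 32 together. In these fits 43 to 51.5% of all genes were above 0. With total counts 0 members were above 0 (17.5% of all genes). The edgeR quasi-likelihood test called 0 members, against 0.303% of all genes. At an unadjusted p under 0.05 there were 3, all lower in females (3.66%, against 4.44% of all genes) and all complex IV isoforms near the detection limit. DESeq2 and limma-voom called none either (0.901% and 0.988% of all genes). Cox4i2, the hypoxia-responsive isoform of Cox4i1, had a log2 fold change of -4.05 (SE 1.33, adjusted p = 0.606), a value that depends on the prior count because all GCV females were at 0. It was at 4.20 CPM in GCV male 32 and 1.98 CPM in VEH male 24, at 0.156 to 0.564 CPM in the other males and at 0 to 0.503 CPM in the females. Cox6a2, the heart and muscle isoform of Cox6a1, reached 1.28 CPM in VEH male 24 and was at 0 in all 6 females. Cox7a1 was at 1.55, 1.17 and 2.11 CPM in GCV males, 0.933, 1.61 and 1.25 CPM in VEH males, 1.74, 0 and 0.839 CPM in GCV females and 0.268, 0.145 and 0.378 CPM in VEH females, so the sexes overlapped. For Cox4i2 and for Ndufa4l2, a homologue of Ndufa4 at 4.98 CPM in GCV male 32, the highest liver was one of those with low hepatocyte markers, whose stellate marker sums were 1235 CPM (GCV male 32) and 462.2 CPM (VEH male 24) against 163.0 to 352.5 CPM elsewhere. Striated muscle markers summed to 0 to 5.19 CPM over the 12 livers. The part of these markers in the levels of Cox4i2, Ndufa4l2, Cox6a2 and Cox7a1 was not tested. The widely expressed partners were far more abundant in every liver, as Cox4i1 (44.0 to 249.3 CPM), Cox6a1 (48.7 to 238.2 CPM) and Cox7a2 (20.1 to 161.6 CPM) show.

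The wild-type livers varied far less, with a common dispersion of 0.0276 against 0.312 in the p16-3MR livers. Complex I averaged 7.66 ± 0.0777 in GCV females, 7.58 ± 0.0282 in VEH females, 7.70 ± 0.0395 in GCV males and 7.71 ± 0.0603 in VEH males (SD, n = 3). Complex III averaged 8.12 ± 0.0449, 8.14 ± 0.0921, 8.22 ± 0.0247 and 8.29 ± 0.0276 in the same order, and complex V 8.59 ± 0.00681, 8.56 ± 0.0751, 8.57 ± 0.0865 and 8.67 ± 0.0355. In males, after TMM scaling, complexes III and V were lower with GCV than with VEH in every liver, by 0.074 and 0.106. Without Atp5g2, left out after seeing the data, the complex V difference was -0.052 and the groups overlapped (8.80 to 8.88 with GCV, 8.84 to 8.93 with VEH). With total counts and no TMM the groups overlapped in both complexes, as GCV male 2 (TMM factor 0.975) lay above VEH male 1 (0.835). Complex II, at 7.50 ± 0.0205, 7.44 ± 0.0518, 7.47 ± 0.0582 and 7.52 ± 0.00945, and complex IV, at 5.91 ± 0.0679, 6.02 ± 0.0530, 5.92 ± 0.144 and 5.96 ± 0.00954, overlapped between treatments in both sexes.

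In wild-type females the GCV differences of the members lay close to 0. No member was called by the Benjamini-Hochberg adjusted quasi-likelihood test of edgeR (0.00791% of all genes), and 1 had an unadjusted p under 0.05 (4.56% of all genes). DESeq2 and limma-voom called none either (0.134% and 0.0237% of all genes). The one member was Cox7a1, at 4.75, 5.47 and 4.74 CPM with GCV and 7.05, 7.52 and 7.99 CPM with VEH (log2 fold change -0.60, SE 0.285, unadjusted p = 0.0494, adjusted p = 1.0). Next in order were Ndufa5 (0.21, SE 0.103), Uqcr11 (-0.19, SE 0.0965) and Sdhd (0.21, SE 0.113). The medians of complexes I to V were 0.08, 0.04, -0.01, 0.00 and 0.06, and 34 of 53 members were above 0 (49.2% of all genes). Members without overlap were 5 higher (9.43%, against 5.05% of all genes) and 3 lower (5.66%, against 4.95%). Leaving out 1 female moved the 5 to between 6 and 15, the latter without GCV female 4 (9.34% of all genes), and the 3 to between 3 and 6, the latter without VEH female 4 (10.5% of all genes) or VEH female 5 (11.1%). With total counts and no TMM, 3 were higher (4.5% of all genes) and 3 lower (5.56%) without overlap.

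In wild-type males 38 of 53 members had a fold change below 0 (71.7%, against 47.6% of all genes), with medians of -0.04, -0.05, -0.07, -0.08 and -0.05 for complexes I to V. No member was called (0.0% of all genes), and Uqcrq alone had an unadjusted p under 0.05 (5.06% of all genes). DESeq2 and limma-voom called none either (0.00791% and 0% of all genes). Uqcrq was at 662.8, 735.4 and 737.7 CPM in the GCV males and 755.8, 847.7 and 857.6 CPM in the VEH males, with no overlap (log2 fold change -0.20, SE 0.0930, unadjusted p = 0.0394, adjusted p = 0.889 by the Benjamini-Hochberg adjusted quasi-likelihood test of edgeR). Ndufa3 (-0.20, SE 0.0953), Cox6a1 (-0.20, SE 0.0981) and Atp5g2 (-0.53, SE 0.265) followed. Atp5g2 was the member with the second largest range of group means (0.589 log2 units) among those with at least 10 counts in this table and varied within groups, at 39.6, 100.3 and 90.0 CPM in GCV males and 128.3, 70.8 and 135.0 CPM in VEH males. Without overlap, 8 members were lower with GCV (15.1%, against 4.37% of all genes): Uqcrq, Uqcrc1 and Uqcr10 of complex III, Ndufa2, Ndufa3 and Ndufa12 of complex I, Sdhd and Atp5a1. Leaving out 1 male moved the 8 to between 8 and 20, with 20 without VEH male 1 (12% of all genes) and 17 without GCV male 3 (8.28%). Cox7a1 was the 1 member that was higher without overlap (4.48% of all genes), a count that was 6 without GCV male 2 (10.5% of all genes). With total counts and no TMM, 3 members were lower (3.28% of all genes) and 0 higher (4.69%) without overlap. After TMM scaling the hepatocyte markers summed to 14380 to 14900 CPM in GCV males and 15200 to 15920 CPM in VEH males, without overlap. Of these 3 markers 2 had a fold change below 0 and 1 above. Their part in the member levels was not tested.

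The female minus male response in the wild-type livers was above 0 in 43 of 53 members (49.1% of all genes), with a median of 0.10. No member was called (0.00791% of all genes), and 3 had an unadjusted p under 0.05 (4.45% of all genes). DESeq2 and limma-voom called none either (0.00791% of all genes in each). The 3 were Sdhd (0.39, SE 0.161, unadjusted p = 0.0250), Cox7a1 (-0.99, SE 0.431, unadjusted p = 0.0316) and Ndufa3 (0.31, SE 0.135, unadjusted p = 0.0328), each with an adjusted p of 0.982, and Uqcrq followed (0.24, SE 0.132). Sdhd was at 78.4, 80.8 and 72.9 CPM in GCV females, 65.0, 63.5 and 71.9 CPM in VEH females, 68.2, 66.9 and 62.9 CPM in GCV males and 77.4, 77.4 and 69.3 CPM in VEH males. GCV livers were thus above VEH livers in females and below them in males, without overlap in either sex. Cox7a1 and Ndufa2 also separated in opposite directions in the sexes, which makes 3 of 53 members (5.66%, against 0.435% of all genes) after TMM scaling. With total counts and no TMM, Cox7a1 and Sdhd overlapped between the treatments in males.

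The differences that passed the test lay between wild-type females and males. Averaged over treatments, 7 of 53 members were called (13.2%, against 7.94% of all genes). After TMM scaling, lower in females were 6 (11.3%, against 4.05% of all genes), a direction that turned with total counts, all of them small or accessory subunits that their symbols place in complexes I and III, and higher in females was 1, Cox7a1 of complex IV (1.89%, against 3.89%). No member of complexes II and V was called in either direction. All values that follow are log2 fold changes, females minus males, with adjusted p by the Benjamini-Hochberg adjusted quasi-likelihood test of edgeR.

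Uqcr10 differed by -0.28 (SE 0.0741, adjusted p = 0.0209). It was at 230.9, 222.7 and 249.7 CPM in GCV females, 229.7, 222.1 and 279.5 CPM in VEH females, 279.2, 272.6 and 276.2 CPM in GCV males and 287.4, 315.9 and 308.8 CPM in VEH males, so VEH female 6 alone reached the males. Uqcr11 differed by -0.25 (SE 0.0682, adjusted p = 0.0254), at 438.3, 415.1 and 478.5 CPM, 485.3, 494.8 and 539.1 CPM, 546.8, 516.7 and 576.8 CPM, and 564.7, 606.1 and 569.0 CPM in the same order. Again VEH female 6 lay within the range of the males and the other females below it. Uqcrc1, which was not called, also held an NRF1 match in its start-site window.

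Ndufv3 differed by -0.29 (SE 0.0826, adjusted p = 0.0310), at 264.3, 216.9 and 263.3 CPM in GCV females, 253.7, 269.0 and 214.2 CPM in VEH females, 313.2, 249.9 and 302.5 CPM in GCV males and 321.8, 304.9 and 324.1 CPM in VEH males. GCV male 2 was the one male within the female range. Ndufa4, first assigned to complex I and now regarded as a subunit of complex IV, was below all males in all females, at 864.0 to 924.8 CPM against 946.9 to 1157 CPM (-0.23, SE 0.0672, adjusted p = 0.0403). Ndufa13, a membrane-arm subunit also known as GRIM-19, was separated too, at 466.5 to 523.0 CPM against 527.7 to 632.0 CPM (-0.22, SE 0.0680, adjusted p = 0.0466). Ndufa2 ran from 324.9 to 352.9 CPM in females and from 350.2 to 415.4 CPM in males (-0.21, SE 0.0646, adjusted p = 0.0489).

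Cox7a1 was the exception in direction and by far the lowest of the 7 in counts, with a mean of 22.3 per library. It was higher in every female (4.74 to 7.99 CPM) than in every male (2.84 to 4.72 CPM), with a log2 fold change of 0.71 (SE 0.215, adjusted p = 0.0466), and had the largest range of group means in this table (1.12 log2 units). In the p16-3MR livers its fold change was -1.42 (SE 0.584, adjusted p = 0.685), with a mean of 6.58 counts per library. In DESeq2 the adjusted p of Cox7a1 was 0.088, and with any 1 liver left out of the edgeR fit it was 0.0629 to 0.112; in VEH livers alone it was the 1 member called. The striated muscle marker in the wild-type table was at 0 to 2.82 CPM, and its part in the level of Cox7a1 was not tested.

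**Figure D4:**
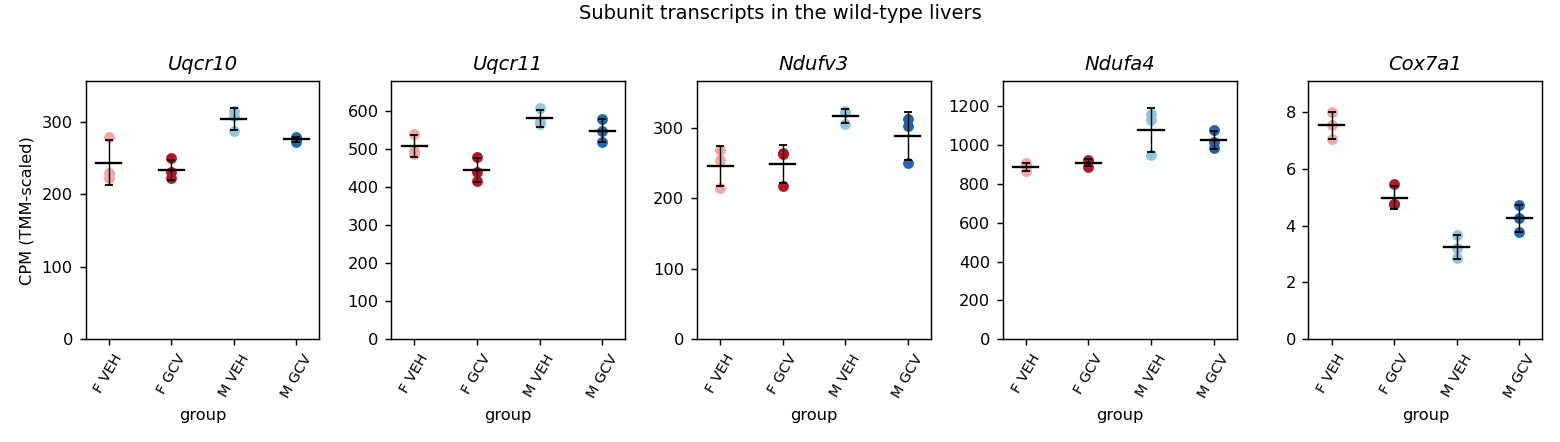
TMM-scaled CPM (y axis, from 0) of Uqcr10, Uqcr11, Ndufv3, Ndufa4 and Cox7a1 in wild-type livers by group (x axis); points are livers, bars the group mean and error bars SD (n = 3). The female groups lie below the male groups in the first 4 genes and above them in Cox7a1 (4.74 to 7.99 against 2.84 to 4.72 CPM); with total counts the differences of the first 4 turn.

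By complex, the median difference between wild-type females and males was -0.08 for complex I (16 of 20 below 0), 0.01 for complex II (2 of 4), -0.18 for complex III (5 of 8), -0.12 for complex IV (8 of 11) and -0.06 for complex V (8 of 10), against 0.03 for all genes. Over all complexes 39 of 53 members were below 0 with TMM (73.6%, against 46.5% of all genes) and none with total counts. At an unadjusted p under 0.05, 18 members were lower (9.7% of all genes) and 1 higher (10.4% of all genes). Just short of the adjusted limit were Atp5a1 (-0.20, adjusted p = 0.0514), the catalytic-head alpha subunit, which ran from 603.2 to 656.2 CPM in females and from 713.4 to 746.9 CPM in males, and Atp5g3 (-0.20, adjusted p = 0.0759), with 750.1 to 851.3 CPM against 853.2 to 995.2 CPM. Cox4i1 (-0.20, adjusted p = 0.0838) and Cox5a (-0.20, adjusted p = 0.0800) came next. Other core subunits were further from it, such as Ndufv1 (-0.16, adjusted p = 0.214), Uqcrc1 (-0.16, adjusted p = 0.210), Sdha (-0.14, adjusted p = 0.274), Sdhb (-0.02, adjusted p = 0.956) and Uqcrfs1 (0.02, adjusted p = 0.975). Without overlap, 6 members were lower in females (Ndufa4, Ndufa13, Ndufa10, Uqcrh, Atp5a1 and Atp5g3; 2.46% of all genes) and 1 higher (2.31%). Leaving out 1 liver moved the 6 to between 6 and 11, with 11 without GCV male 2 (3.16% of all genes), 10 without VEH female 6 (2.92%) and 9 without GCV female 6 (2.84%).

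**Figure D5:**
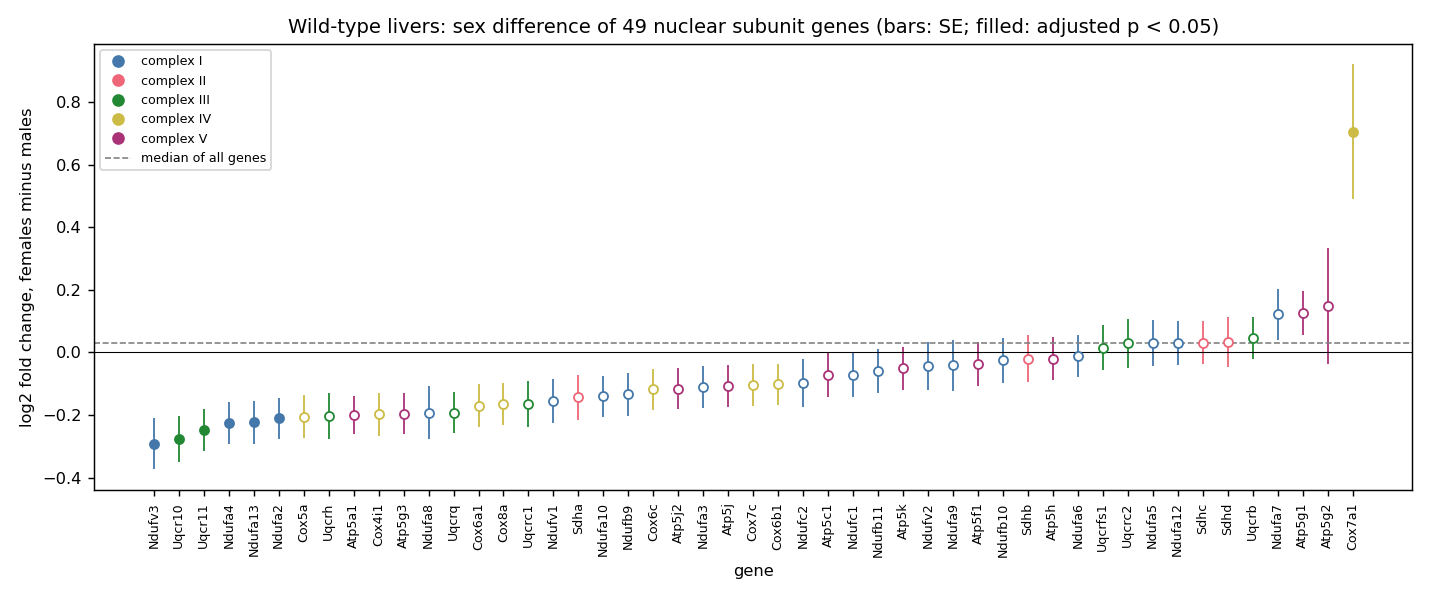
Log2 fold change between wild-type females and males (y axis) of the 49 members with a mean of at least 10 counts (x axis, ordered by value); bars are SE, colours the complex, filled points an adjusted p under 0.05 and the dashed line the median of all genes. The 6 filled points at the left are complex I and III genes between -0.29 and -0.21, and Cox7a1 stands alone at 0.71; with total counts the 6 turn.

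The direction of this sex difference depended on the scaling. The TMM factors were 1.11 to 1.14 in females and 0.835 to 0.975 in males, and the 10 most abundant genes took 18.6 to 19.5% of the counts in females and 23.2 to 29.5% in males. As a share of all counts the members were higher in every female (1.91 to 2.02%) than in every male (1.56 to 1.84%), whereas after TMM scaling their sum was lower in every female (17230 to 18110 CPM) than in every male (18120 to 20220 CPM). With total counts and no TMM, all 53 members were above 0 (83.1% of all genes), 27 were called (28.9% of all genes) and the 6 lower calls turned, while the median of all genes moved from 0.03 to 0.35. Relative to that median the members stood at -0.13 with TMM and at -0.12 with total counts. Hepatocyte markers summed to 12650 to 13890 CPM in females and 14380 to 15920 CPM in males, and stellate markers to 276.5 to 340.0 CPM and 215.7 to 268.7 CPM, both without overlap. Brown adipocyte markers (Cidea, Elovl3 and Ppargc1a in this table) summed to 21.4 to 30.7 CPM and 68.7 to 153.6 CPM. Of these Elovl3, a fatty acid elongase, was at 1.77 to 5.17 CPM in females and 51.3 to 142.8 CPM in males. Ppargc1a was higher in females, and Cidea was at 0 in every female and at 0 to 0.656 CPM in males. The higher sum in males thus came from Elovl3 alone. The part of these markers in the member levels was not tested. Leaving out 1 liver gave 0 to 11 called members, with 0 without GCV female 5 (6.52% of all genes). The count was 1 without GCV female 4, VEH female 4 or VEH female 5 (6.23 to 7.92%). It was also 1 without GCV male 1, GCV male 3, VEH male 2 or VEH male 3 (6.31 to 7.31%). There were 2 without VEH female 6 (7.02%), 3 without GCV female 6 (6.44%), 6 without GCV male 2 (7.7%) and 11 without VEH male 1 (9.94%).

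Genes that work with the subunits were read from fixed lists. Of 55 assembly factors, electron carriers and other respiratory chain genes, 43 were higher (46.1% of all genes) and 12 lower (49.8%) with GCV in p16-3MR females. The edgeR quasi-likelihood test called 0 of them (0.0% of all genes), and 2 had an unadjusted p under 0.05 (7.37% of all genes). In that test the lowest p was that of Uqcc2, a complex III assembly factor (1.08, unadjusted p = 0.00994). With total counts 14 of the 55 were above 0 (23.1% of all genes). In p16-3MR males 23 were higher (52.8% of all genes) and 32 lower (45.5%), and the lowest p in the edgeR test was that of Atpif1, the ATP synthase inhibitor (0.96, unadjusted p = 0.0242). All 13 mitochondrially encoded subunits were higher with GCV in p16-3MR females (46.1% of all genes), with a median of 2.54, 0 called and the lowest p for mt-Nd6 (2.36). Their sum was 2105000 CPM in liver 33 and 62400 to 216800 CPM in the other livers of both sexes. CPM here is taken per TMM-scaled library, so a sum is not bounded by the library total. Without liver 33 the median of the 13 was 0.19, with 10 above 0 and none at an unadjusted p under 0.05. Of 11 regulators 10 were above 0 in p16-3MR females (46.1% of all genes), and the lowest p in the edgeR test was that of the exception, Gabpa, a subunit of GABP (-1.03, unadjusted p = 0.0331). Without liver 33, 6 of the 11 were above 0 and Gabpa differed by -0.76 (unadjusted p = 0.0709), and with total counts 1 of the 11 was above 0 (23.1% of all genes).

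In wild-type livers, 3 of the 43 other respiratory chain genes in the table (7.94% of all genes), 1 of 7 regulators and 2 of 11 mitochondrially encoded genes differed between the sexes by the Benjamini-Hochberg adjusted quasi-likelihood test of edgeR. Acad9, a complex I assembly factor, was 0.69 higher in females (adjusted p = 3.46e-04), Atpif1 was 0.57 higher (adjusted p = 0.00161), and Cox19, a copper protein of complex IV assembly, was lower (-0.61, adjusted p = 0.0110). Among the regulators Ppargc1a passed, with a log2 fold change of 0.61 (adjusted p = 0.00823). It was at 28.2, 25.6 and 25.7 CPM in GCV females, 18.7, 22.8 and 16.2 CPM in VEH females, 15.7, 14.0 and 17.4 CPM in GCV males and 16.0, 16.2 and 10.3 CPM in VEH males. Ppargc1a was therefore higher in the sex in which the 6 called subunits of complexes I and III were lower after TMM scaling. With total counts all 53 members, these 6 included, were higher in females (83.1% of all genes), so that opposition held with TMM only. mt-Cytb, the mitochondrial subunit of complex III, was lower in females after TMM scaling (-0.25, adjusted p = 0.00749) but not with total counts (0.08, adjusted p = 0.380). mt-Nd6 was higher (1.01, adjusted p = 0.0335), which rested on GCV females 5 and 6, at 33.7 and 20.4 CPM, where the other females were at 6.19 to 7.76 CPM and the males at 3.99 to 7.59 CPM. Its adjusted p was 0.113 without GCV female 5 and 0.0563 without GCV female 6, and its GCV difference in females was 1.56 (unadjusted p = 5.24e-04, adjusted p = 0.320).

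The members are short, with a median transcript length of 669.5 bases in the p16-3MR table against 2157 bases for genes with at least 10 counts. In p16-3MR females, Spearman's rho across the 82 members between length and the GCV log2 fold change was -0.226, and across 11489 genes with at least 10 counts it was -0.183. In males the values were -0.186 and -0.144. In wild-type livers the values ran the other way or near 0, at 0.12 across the 53 members and -0.0166 across all such genes in females, and at 0.246 and 0.098 in males. Genes share the same livers and are not independent replicates, and the part of length in the member fold changes was not tested.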

How the data were processed

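Liver RNA was made into Smart-3SEQ libraries, which count 3′ ends. Per the labels and the published methods, the authors checked reads with FastQC 0.11.9, trimmed them with Trim Galore 0.6.10, quantified them with Salmon 1.10.3 against a mouse transcriptome (mm10) and summed them to genes. The deposited values are estimated counts per gene, which were rounded here. The annotation behind the wild-type labels was not given in the sources used here; a label was used where it fitted 1 symbol after removal of the same letters (30 members' labels fitted several symbols and 2 were not listed).

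Within each genotype, edgeR 4.0.16 (quasi-likelihood test, R 4.3.3) was fitted to all genes of the 12 livers with 1 mean per group and TMM factors, with Benjamini-Hochberg adjustment over all genes and an adjusted p under 0.05 as a call. The 4 contrasts were GCV minus VEH in each sex, their difference, and females minus males averaged over treatments. Log2 CPM used a prior count of 2. Complex levels and medians were given without a test. Salmon splits reads shared by near-identical copies by estimation, so such members are less certain. The fit was tested on simulated counts.

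Alternatives were DESeq2 1.42.0, its size factors, total counts, libraries without mitochondrially encoded genes, limma 3.58.1 voom with quality weights, filterByExpr, each liver left out, the livers of 1 sex or of VEH alone, a prior count of 0.5 and a replicate block. The members and lists were chosen with earlier results of these data known. Named were the members called in a contrast, or the 4 with the lowest p where fewer than 3 were called; core subunits of each complex (1 of them is not reported here); tissue isoforms with their partners; the 2 members per table with the largest range of group means; and other listed genes that were called or had the lowest p.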

Additional observations from a re-analysis of the deposited data

Results flagged for a closer look

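In 3 wild-type members, Cox7a1, Sdhd and Ndufa2, the GCV and VEH livers differed in opposite directions in the sexes after TMM scaling, with no overlap in either sex. That is 5.66% of the 53 members, against 0.435% of all genes. With total counts and no TMM, Cox7a1 and Sdhd overlapped between the treatments in males. The female minus male response on the log2 scale was -0.99 for Cox7a1 (unadjusted p = 0.0316), 0.39 for Sdhd (unadjusted p = 0.0250) and 0.22 for Ndufa2 (unadjusted p = 0.106), none of them past the adjusted limit in the Benjamini-Hochberg adjusted quasi-likelihood test of edgeR (adjusted p = 0.982 for each). Ndufa2 was at 335.3, 349.0 and 352.9 CPM in GCV females against 331.4, 325.4 and 324.9 CPM in VEH females, and at 377.0, 350.2 and 385.5 CPM in GCV males against 409.0, 400.4 and 415.4 CPM in VEH males.

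Wild-type labels that fit several genes of 1 complex were outside the comparisons. There were 14 of them (10 of complex I, 1 of complex IV and 3 of complex V), and 13 were lower in females than in males after TMM scaling (46.5% of all genes), as most single members were. With total counts all 53 single members were higher in females (83.1% of all genes). The direction of the 14 labels on that scale is not given here. After TMM scaling the label that fits Cox7a2 and Cox7a2l differed by -0.26 (adjusted p = 0.0155 by the edgeR quasi-likelihood test), and the value cannot be assigned to either gene. The label that fits Ndufb1 and Ndufs1 was the 1 with a value above 0 (0.12).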

How the results depend on the processing

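Of the values that answer a comparison, 1116 stayed near the main value under the alternatives, 52 moved and 1 lost its calls. A median or mean level counted as near when its shift was within the SD between livers, so a turned sign could count as near. A count was near when it was equal or within a set factor. Of the values for single genes, 627 kept their direction and side of the limit, 68 no longer passed it and 6 reversed. With total counts and no TMM, the p16-3MR female medians became -0.0020 for complex I and 0.0 for complex IV, and those of the female minus male response -0.089 and -0.084; with limma-voom the latter was 0.91 for complex IV. Total counts also left 1 p16-3MR member, in place of 28, higher in all GCV females than in all VEH females, and in wild-type livers 3 members higher in females (in place of 5) and 3 lower and 0 higher in males (in place of 8 and 1) with GCV, alternatives chosen after seeing the data. In the wild-type sex comparison DESeq2 called 13 members (8.22% of all genes), limma-voom 14 (9.14%), total counts 27 (28.9%) and VEH livers alone 1 (3.82%). Total counts gave medians of 0.25, 0.34, 0.15, 0.21 and 0.27 for complexes I to V and 0.23 for all members, and turned Uqcr10 (0.052), Uqcr11 (0.084), Ndufv3 (0.044), Ndufa4 (0.10), Ndufa13 (0.11) and Ndufa2 (0.12). VEH livers alone gave -0.08 for complex II. A prior count of 0.5 lowered mean levels of complex IV to 3.99 (VEH females) and 4.53 (VEH males) in p16-3MR livers, and in wild-type livers to 5.58, 5.72, 5.49 and 5.56 (GCV females, VEH females, GCV males, VEH males), with all members at 7.46, 7.45, 7.46 and 7.51. The cause of these shifts beyond the scaling itself was not tested.

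Leaving out 1 liver moved the p16-3MR male medians between -0.51 and 0.36 (complex I) and between -0.48 and 0.25 (complex IV), and those of the female minus male response between 0.14 and 1.03 (complex I), 0.19 and 0.89 (complex IV), -0.025 and 0.95 (complex V) and 0.057 and 0.97 (all members). The count of p16-3MR members higher without overlap in females ran from 28 to 63. In wild-type livers the complex III median ran from -0.038 to 0.049 in females and from 0.0026 to 0.14 for the female minus male response, whose range was -0.00089 to 0.067 for complex II and 0.064 to 0.14 for all members. For the sex comparison, called members ran from 0 to 11, while 6.23 to 9.94% of all genes were called. The complex II median ran from -0.039 to 0.022. Adding the labels that fit several genes of 1 complex, chosen after seeing the data, left the wild-type medians within the replicate spread.

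Replicate numbers are shared between treatments only in the wild-type labels. Same-numbered livers correlated at -0.045, -0.057 and 0.0018 in females and 0.196, 0.283 and -0.066 in males, so the numbers were not taken as pairs. With a replicate block 0 members were called in females, in males and in their difference (0.838%, 0.538% and 0.625% of all genes). The member medians were 0.034, -0.051 and 0.094. With 3 livers per group and a common dispersion of 0.312, the p16-3MR table limits which fold changes can pass a test, and counts under 10 per library limit Cox4i2, Cox6a2, Cox6b2, Cox7a1 and Ndufa4l2 there.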
